A study of Mus musculus with 2 samples.

Results

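Inner root sheath and hair keratins are structural proteins of the growing hair and of the sheath that surrounds it. Of the 10 gene symbols listed for this group, 9 were found in both count tables: Krt25, Krt27 and Krt28 (type I keratins of the inner root sheath), Krt71 and Krt73 (type II keratins of the same sheath), Krt75 (the type II keratin of the companion layer), Krt35 and Krt31 (type I keratins of the hair shaft) and Tchh (trichohyalin, a protein that binds keratin filaments in the inner root sheath and medulla). The tables held 27998 genes, and 1 of the 10 listed genes is not analysed here. A type I keratin pairs with a type II keratin to form a filament. Dividing matrix cells at the base of the follicle feed the sheath and the shaft, where cells stop dividing and keratinize.

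The cells came from the epidermis of 2 male C57BL/6J mice at postnatal day 0, both with a knockout (KO) of Chrm3, which encodes the M3 muscarinic acetylcholine receptor. Each mouse gave 1 single-cell library, made from epidermis that had been separated from the dermis, filtered and cleared of dead cells. Wild-type mice are not analysed here, so every value describes Chrm3 KO epidermis and none describes an effect of the knockout. Chrm3 gave 13 UMIs (unique molecular identifiers, 1 per captured transcript) in KO mouse 1 and 19 in KO mouse 2, and a 3′ tag outside the deleted part would not check the genotype.

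The filter took cells that had 900 to 7700 detected genes and a mitochondrial share below 10%. It left 7607 cells in KO mouse 1 and 11881 in KO mouse 2, with medians of 10480 and 10577 UMIs. The libraries shared 34 barcodes among these cells. Clustering without the follicle keratins gave 24 clusters, of which 8 were hair follicle-like (3570 and 5161 cells) and 9 were like interfollicular epidermis (IFE; 3245 and 5526 cells). In 4 of the 8 and 5 of the 9, no fixed marker was among the 10 leading genes, and the name rests on mean marker levels. Clusters of dividing cells could take only the name hair follicle or basal IFE. Among them, cluster 9 (910 cells, led by Mt4 and Cldn10) was counted as hair follicle-like. Its mean log2 enrichment for the hair follicle markers was -0.18, below the other cells. How far the results depend on this cluster was not tested. Melanocyte-like, Langerhans-like and T cell-like clusters (634 and 959 cells) gave the background level that free RNA can produce.

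The 9 genes lie at 3 sites of the mouse genome (GRCm38). Krt25 (chr11:99315516-99322951), Krt27 (chr11:99345565-99351104) and Krt28 (chr11:99364872-99374903) are neighbors on the minus strand, with 8 exons each. Krt31 (chr11:100046646-100050551) and Krt35 (chr11:100092193-100096241) lie on the same strand with 7 exons each. Krt75 (chr15:101563345-101573904), Krt71 (chr15:101733949-101743109) and Krt73 (chr15:101793308-101802346) have 9 exons each on the minus strand of chromosome 15. Tchh (chr3:93442330-93449077) has 2 exons on the plus strand. No annotated gene overlapped any of the 9 on its own strand, and the antisense gene Gm37245 had 1 UMI where Tchh had 6849.

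RefSeq promoter sequence (GRCm38.p6) was matched for 8 of the 9 genes. The TATA box letters TATAAA were searched on both strands of the 250 bases before the start. They occurred in 6 of the 8 genes (Krt25, Krt27, Krt28, Krt31, Krt71 and Krt73) and in 12.4% of all 32851 windows. The last 100 bases before the start are shown for the 5 inner root sheath keratins, which hold these letters, and for Krt75 and Tchh, which do not. They read 5′ to 3′ along the gene, with TATAAA in capitals.
Krt25 (chr11:99322952-99323051, minus strand): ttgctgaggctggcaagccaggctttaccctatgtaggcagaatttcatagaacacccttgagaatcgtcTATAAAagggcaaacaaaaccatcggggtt
Krt27 (chr11:99351119-99351218, minus strand): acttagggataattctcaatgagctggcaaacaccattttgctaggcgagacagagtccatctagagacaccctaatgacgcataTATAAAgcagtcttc
Krt28 (chr11:99374904-99375003, minus strand): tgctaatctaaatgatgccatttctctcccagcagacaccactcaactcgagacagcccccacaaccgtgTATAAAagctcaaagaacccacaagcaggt
Krt71 (chr15:101743098-101743197, minus strand): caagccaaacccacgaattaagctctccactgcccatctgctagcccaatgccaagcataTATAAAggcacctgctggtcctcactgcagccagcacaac
Krt73 (chr15:101802361-101802460, minus strand): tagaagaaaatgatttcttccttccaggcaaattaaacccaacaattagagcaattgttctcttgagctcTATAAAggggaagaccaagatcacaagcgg
Krt75 (chr15:101573905-101574004, minus strand): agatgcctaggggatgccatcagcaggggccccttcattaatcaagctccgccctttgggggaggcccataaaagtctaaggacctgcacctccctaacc
Tchh (chr3:93442230-93442329, plus strand): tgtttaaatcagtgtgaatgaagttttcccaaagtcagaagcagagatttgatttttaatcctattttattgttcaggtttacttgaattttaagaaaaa
The first base of TATAAA stood 30 bases before the RefSeq start in Krt25, Krt28 and Krt73, 40 bases before it in Krt71 and 15 bases before it in Krt27. For Krt27, Krt71 and Krt73 the RefSeq start differs from the gene position given above, so these distances depend on the annotation used. The GATA factor letters GATAA were in 6 of the 8 windows and 22.6% of all windows. The LEF1 letters CTTTGAA were in 2 (Tchh and Krt31; 4.46% of all), the KLF letters CCACCC in 2 (Krt25 and Krt27; 28.1% of all) and the AP-1 letters TGACTCA in 0 of 8 (4.46% of all). These matches describe letters only.

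All of the genes were low in the library as a whole, and Krt28 was the most abundant. Krt28 had 5179 UMIs in KO mouse 1 and 8784 in KO mouse 2, in 12.6% and 16.3% of cells. Tchh was found in the most cells, 18.8% and 19.6%, with 2189 and 4660 UMIs. Krt31 was near 0, with 29 and 50 UMIs and never more than 2 in a cell.

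Much of the signal of several genes sat in very few cells. The 10 highest cells of each mouse held 64.4% and 46.7% of the Krt73 UMIs, 57.4% and 53.8% of Krt75 and 48.3% and 50.5% of Krt25. For Krt28 they held 15.2% and 9.50%. A single cell of KO mouse 2 carried 1589 Krt25 UMIs (38.5% of that mouse's total), 809 of Krt71 (41.1%) and 968 of Tchh (20.8%), and 7.12% of its 55843 UMIs came from the 9 genes. Levels are given as CPM, the UMIs of a gene per 1000000 UMIs of the same cells. Since 3′ UMIs count molecules, CPM does not scale with gene length. Without the highest cell of each mouse, Krt71 stood at 6.38 and 7.78 CPM, against 6.79 and 13.2 with it.

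**Figure D1:**
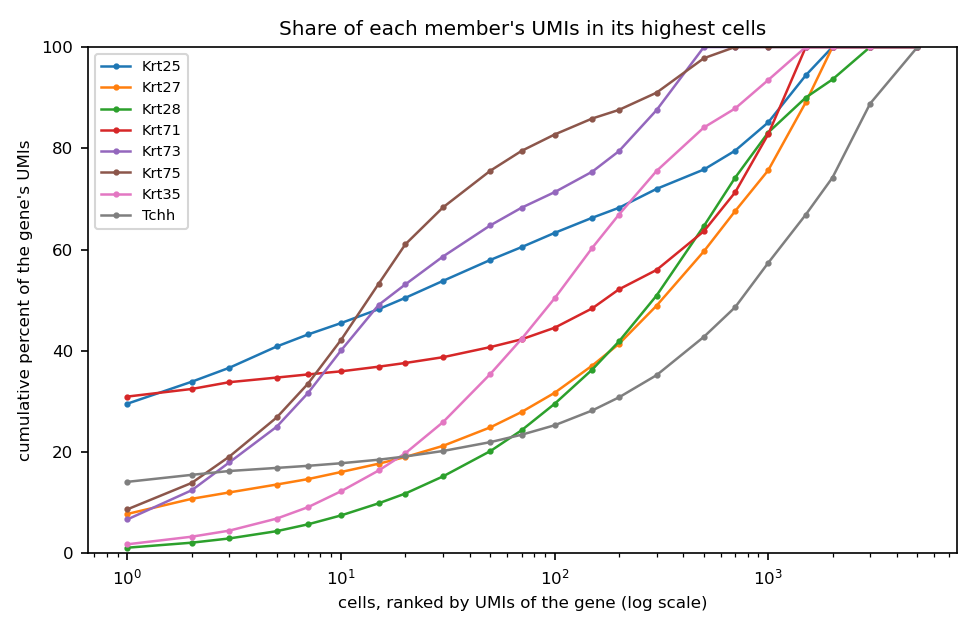
Cumulative percent of each gene's UMIs (vertical axis) held by the highest cells, ranked by UMIs of that gene over both mice (horizontal axis, log scale). The first cell alone holds 29.6% of the Krt25 UMIs, while the first 10 cells hold 7.498% of the Krt28 UMIs.

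The next question was in which cell classes the genes are expressed. UMIs were summed per mouse and class and divided by the class total, with exact Poisson or binomial intervals that cover counting error only. Follicle-like cells held 81.2% (interval 80.6 to 81.8) and 73.2% (72.7 to 73.7) of the UMIs of the 9 genes, a mean of 77.2% ± 5.67 (SD, n = 2 mice), and 49.1% and 46.3% of the UMIs of all genes. The share was highest for Krt75 (96.1% and 87.8%) and lowest for Tchh (28.2% and 40.1%).

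Among the type I sheath keratins, Krt28 stood at 100.5 and 106 CPM in follicle-like cells and at 10.5 and 19.5 in IFE-like cells. The background was 9.61 and 14.7. Within IFE, Krt28 stood at 5.45 and 17.2 in basal cells and at 23.6 (interval 20.8 to 26.7) and 27.5 (24.9 to 30.3) in suprabasal cells, whose median depths were 15215 and 14227 UMIs against 9237 and 9705 in the background cells. Krt27 stood at 24.1 and 28.2 against 3.41 and 6.36 in IFE-like cells, with a background of 4.14 and 4.73. Krt25 stood at 22.1 and 46.1 against 4.74 and 12.8, with a background of 3.69 and 8.52. Without the highest cell of each mouse, the follicle level of Krt25 was 17.1 and 23.0, so most of its difference between the mice came from these 2 cells. Every follicle value of these 3 genes was above every IFE value. With 2 values per group, the share of all genes that separate in this way was not counted. Of the 12899 genes tested between these classes, 38.5% were called.

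The type II sheath keratins Krt71 and Krt73 were lower than Krt28, Krt27 and Krt25 of the same mouse. Krt71 stood at 11.04 and 22.6 CPM in follicle-like cells, 2.97 and 5.34 in IFE-like cells and 1.33 and 4.35 in the background. Krt73 stood at 7.16 and 7.71, against 1.67 and 4.25 in IFE-like cells. The companion layer keratin Krt75 stood at 34.7 and 16.0, against 1.23 and 2.12. For all 3 the groups did not overlap, with the same limit of 2 values per group. Without the highest cell of each mouse, Krt71 stood at 10.2 and 10.9 in follicle-like cells, so its higher value in KO mouse 2 came largely from 1 cell, while Krt75 stood at 31.4 and 12.3.

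Of the hair shaft keratins, Krt35 stood at 56.4 and 28.5 CPM in follicle-like cells and 4.26 and 7.47 in IFE-like cells. Krt31 stood at 0.472 and 0.595, against 0.180 and 0.122. The Krt35 groups did not overlap, with the same limit of 2 values per group, and the share of all genes that separate so was not counted. The Krt31 values rest on 22 and 41 UMIs in follicle-like cells and 7 and 8 in IFE-like cells.

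Tchh took the opposite direction. It stood at 13.2 and 27.1 CPM in follicle-like cells and at 39.3 and 41.2 in IFE-like cells, where basal cells had 38.9 and 38.2 and suprabasal cells 40.5 and 51.5. Without the highest cell, the follicle value of KO mouse 2 was 13.1. The background was 4.29 and 5.003, so Tchh was above it in both classes.

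**Figure D2:**
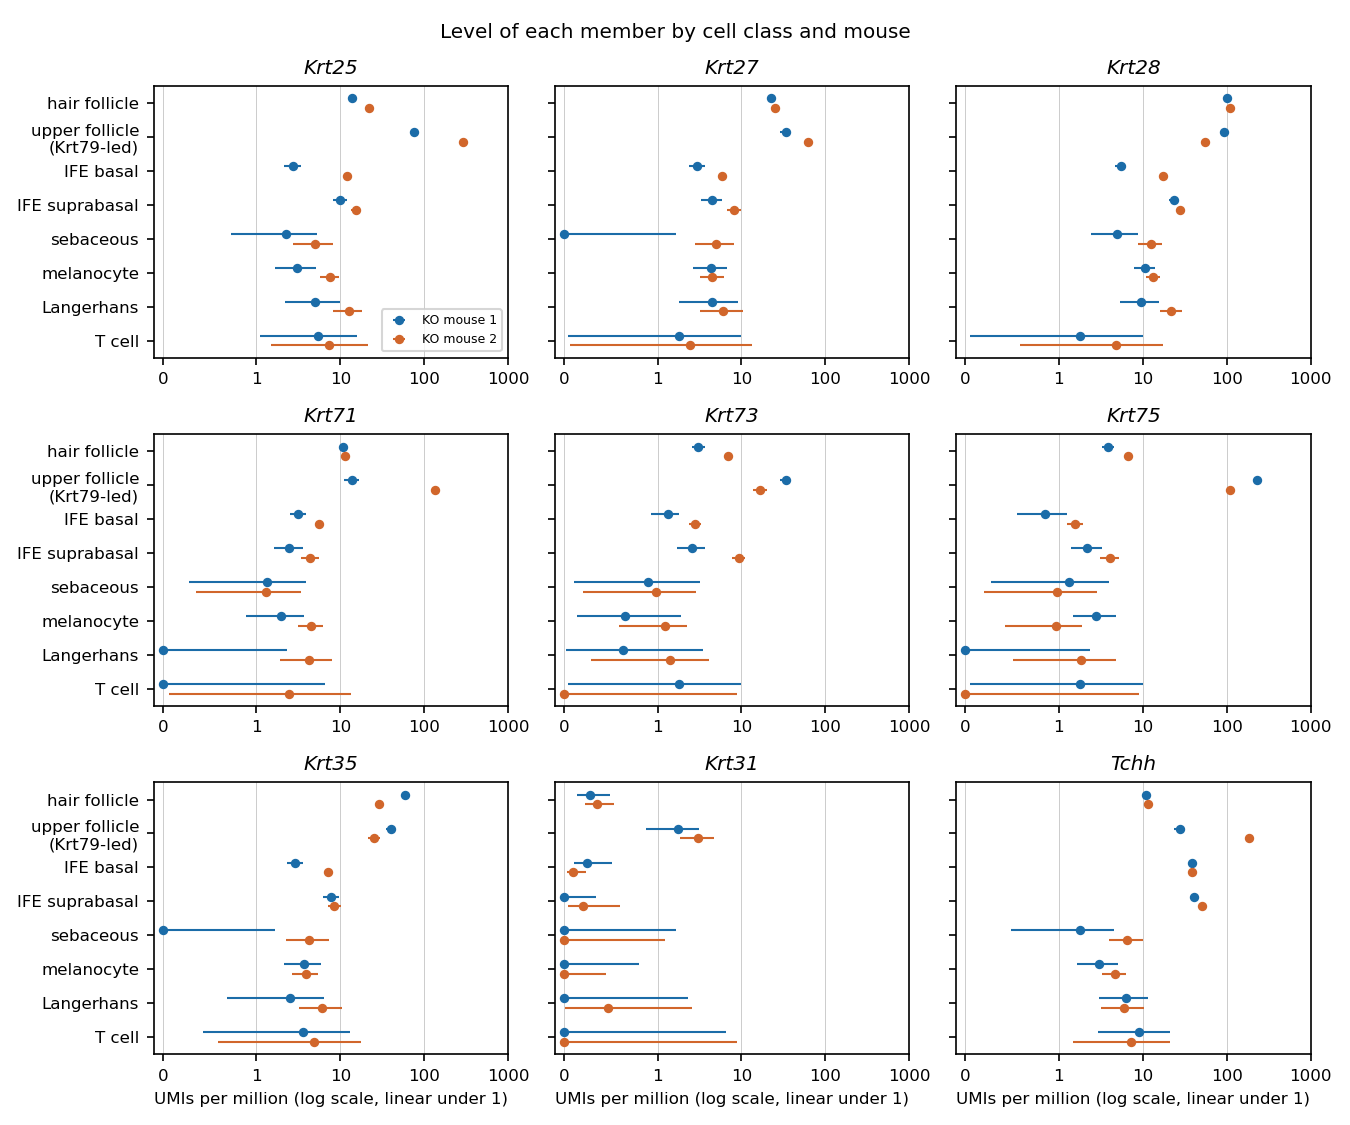
CPM of each gene (horizontal axis, log scale, linear under 1) in 8 cell classes, with 1 point per Chrm3 KO mouse and exact 95% Poisson intervals for counting error. Krt28 reads 102 and 111 in the hair follicle class and 5.45 and 17.2 in basal IFE, while Tchh reads 11.02 and 11.5 in the hair follicle class and 38.9 and 38.2 in basal IFE.

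Sums per mouse and class were tested with edgeR's quasi-likelihood test. Of the 9 genes, 8 could be tested and all 8 were called, 7 higher in follicle-like cells and Tchh lower, while Krt31 was under the filter. Over all 12899 genes tested, 38.5% were called, 19.7% higher and 18.8% lower in follicle-like cells. The median log2 fold change was 2.05 over the 8 genes and -0.01 over all genes tested. The clustering behind the classes used other genes measured in these cells. The p-values come from only these 2 mice. Their spread was estimated over the sums of all classes with at least 50 cells in each mouse, not only follicle-like and IFE-like cells. The fit had no block for the mouse, so sums of different classes from the same mouse were treated as independent.

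The log2 fold change was largest for Krt75 at 3.70 (SE 0.37, edgeR adjusted p = 1.15e-05), followed by Krt35 at 2.67 (SE 0.34, edgeR adjusted p = 6.69e-05) and Krt28 at 2.61 (SE 0.26, edgeR adjusted p = 1.02e-05). Krt27 was at 2.24, Krt71 at 1.85, Krt25 at 1.78 and Krt73 at 1.13, with edgeR adjusted p from 6.84e-05 to 0.0103. Tchh was at -1.12 (SE 0.26, edgeR adjusted p = 0.00486). With KO mouse 1 or KO mouse 2 left out in turn, the fold change was 2.78 and 4.64 for Krt75, 1.80 and 3.56 for Krt35, 0.73 and 1.93 for Krt73 and -0.73 and -1.73 for Tchh, each in the same direction.

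The calls for Krt25 and Krt73 rested on 1 cluster. Without the Krt79-led cluster (568 cells), whose marker Krt79 belongs to the upper follicle, Krt25 had a log2 fold change of 0.86 (edgeR adjusted p = 0.0855) and Krt73 of 0.59 (edgeR adjusted p = 0.248). Krt75 fell to 1.51 and stayed called (edgeR adjusted p = 0.00348). Without the cell richest in these transcripts, Krt25 was at 1.18 (edgeR adjusted p = 0.0188), Krt71 at 1.22 (edgeR adjusted p = 0.00576) and Tchh at -1.76 (edgeR adjusted p = 2.71e-06).

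The 8731 follicle-like cells were then split into 15 sub-clusters, again without the follicle keratins. None took the name inner root sheath or hair shaft under the marker rule, so they are given by number and leading genes. No test was made between them. The rule was stricter here than for the clusters of all cells. The 6 of 15 with no marker among their 10 leading genes were left unnamed, as was any with an IFE name. The rule gave sub-clusters 1, 8, 10 and 11 the name matrix. Krt28 was highest in sub-clusters 10 (442 cells) and 11 (425 cells), both led by metallothioneins, the claudin Cldn10, Wnt5a and Msx2. Sub-cluster 10 also expressed genes of dividing cells, and its leading genes held Msx1 of the hair shaft marker list. Dlx3, a homeobox gene on the inner root sheath marker list, was among the leading genes of sub-cluster 11. Msx2, a leading gene of both, is on the matrix list. Dlx3 stood at 82.6 and 77.0 CPM in sub-cluster 10 and at 96.0 and 83.2 in sub-cluster 11. Msx1 stood at 52.5 and 52.95 and at 53.4 and 39.0, in the same order. Other genes of the sheath list differed: in sub-cluster 11, Gata3 read 235.5 and 238.5 and Ovol1 44.75 and 52.15. Tgm3 read 0.43 and 0.28 there, Padi1 0 and 0.28, and Tchhl1 0 in both mice. Of the shaft list, Hoxc13 read 118.5 and 101 in sub-cluster 10, and Dsg4 read 0.

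In sub-cluster 11, Krt28 stood at 730 (interval 695 to 765) and 733 (705 to 762) CPM, and in sub-cluster 10 at 532.5 and 523. The intervals of the 2 mice overlapped in both. After each cell was thinned to 3000 UMIs, 82.0% and 76.9% of the cells of sub-cluster 11 had a Krt28 UMI, against 1.13% and 3.38% of the background cells. Unthinned, these shares were 96.2% and 94.2%, against 5.05% and 9.59%. Median depths were 11409 UMIs in sub-cluster 11 and 9237 and 9705 in the background cells of each mouse.

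Krt27 and Krt25 shared these sub-clusters. Krt27 stood at 122 and 129 CPM in sub-cluster 11 and at 99.6 and 94.4 in sub-cluster 10. Krt25 stood at 107 and 124 in sub-cluster 11 and at 56.9 and 57.4 in sub-cluster 10. The type II keratins were lower there: Krt73 was at 31.7 and 57.6 in sub-cluster 11 and Krt71 at 9.12 and 21.4. In sub-cluster 10, Krt73 was at 2.17 and 8.09 (1.09 and 2.50 without the highest cell of each mouse) and Krt71 at 1.45 and 3.66, where the background was 1.33 and 4.35.

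Krt35 was found in the same sub-clusters, in sub-cluster 7, in sub-cluster 14 and in those led by Shh, a signal of the matrix. It stood at 106 and 86.7 CPM in sub-cluster 8 (led by Ccer2, Cyfip2 and Shh) and at 55.3 and 31.65 in sub-cluster 1 (led by Shh, Sp5 and Bmp2). In the Krt79-led sub-cluster 7 it stood at 71.3 and 39.6 (61.4 and 33.2 without the highest cell of each mouse), above sub-cluster 1 in both mice. Sub-cluster 14 (26 and 37 cells, led by Mt4, Dct and Mt2) read 95.75 and 102.7, from 8 and 12 UMIs. This spread was not particular to Krt35. Krt28 stood at 42.9 and 42.8 in sub-cluster 1, 115 and 85.2 in sub-cluster 7 and 287 and 308 in sub-cluster 14. Krt27 stood at 108 and 68.5 in sub-cluster 14. In sub-cluster 8, Krt28 was at 65.4 and 78.4, and Krt25 was at 2.22 and 9.34, near its background.

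The mice differed in Krt35 in sub-cluster 11. Krt35 stood at 376 (interval 351 to 402) CPM in KO mouse 1 and 103 (92.5 to 114) in KO mouse 2, a ratio of 3.65, and the ratio for Krt28 was 0.995. Without the highest cell of each mouse, Krt35 stood at 334 and 85.2. Cells with 3 or more Krt35 UMIs were 52 of 184 in KO mouse 1 and 29 of 241 in KO mouse 2. In sub-cluster 10 the Krt35 ratio was 2.04. With 2 animals of the same genotype, this difference has no test.

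**Figure D3:**
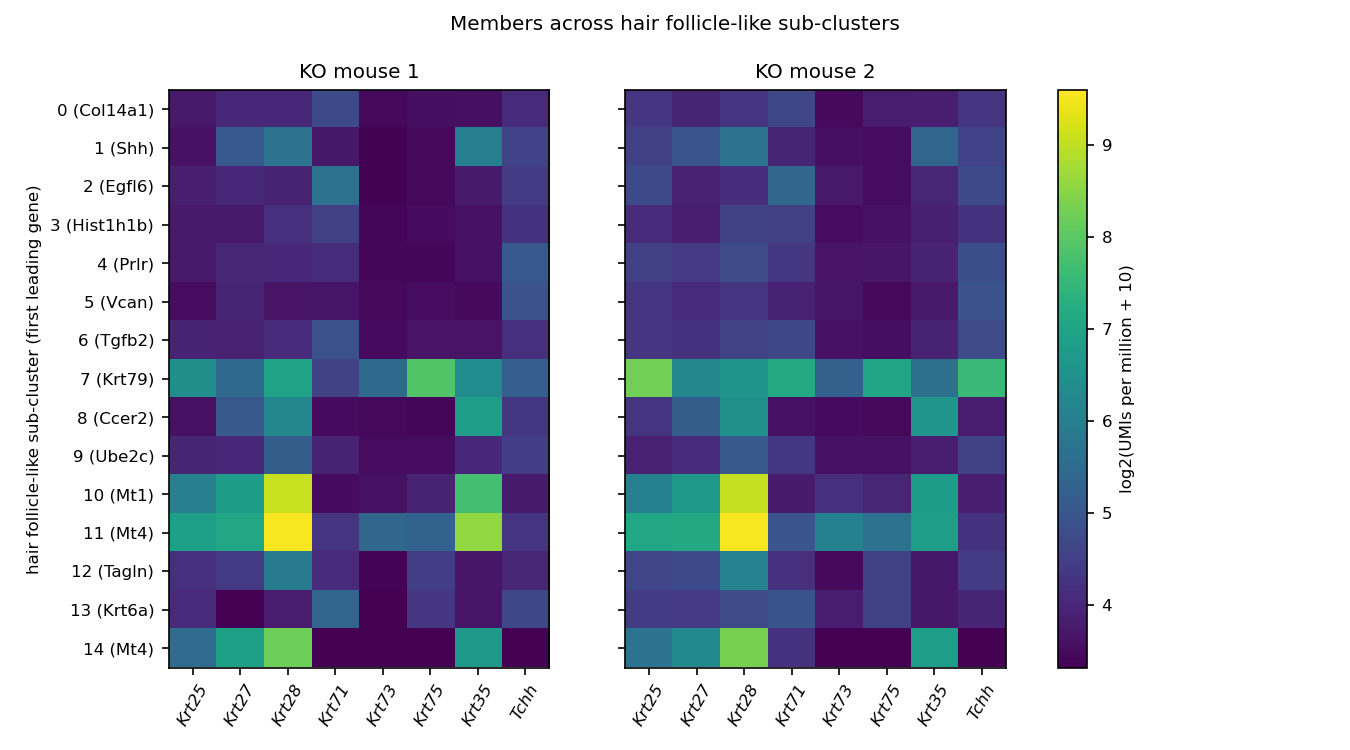
Color shows log2(CPM + 10) of 8 genes (columns) in 15 hair follicle-like sub-clusters (rows, with the first leading gene) of each Chrm3 KO mouse. Krt28 is brightest in sub-cluster 11 (730 and 733 CPM). Both Krt28 and Krt35 extend to sub-clusters 1, 7, 8 and 14, and sub-cluster 7 is bright for Krt75 (227 and 119).

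Krt75 was highest in sub-cluster 7 (579 cells), led by Krt79, Klk7, Hspb1 and Cst6. It stood there at 227 and 119 CPM, or 203 and 78.5 without the highest cell of each mouse, and at 29.1 and 40.5 in sub-cluster 11. Only 17.9% and 13.6% of the cells of sub-cluster 7 had a Krt75 UMI. Of the 95 cells with 3 or more Krt75 UMIs, 61 were in sub-cluster 7 and 17 in sub-cluster 11.

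Those 95 cells carried other keratins of the companion layer, and also Krt79 of the upper follicle. Krt17 stood at 10180 CPM in them and at 2631 in the 7501 follicle-like cells that had fewer than 3 UMIs of each of the 9 genes. Krt6a was found in 37.9% of them and in 2.40% of those other cells. Krt79 was found in 87.4% of them and in 46.5% of those other cells, at 9135 and 1200 CPM. Their median depth was 27367 UMIs against 10705, and depth raises the share of cells with a UMI. These levels were not particular to the Krt75 cells: Krt17 stood at 9991 and 7001 CPM over all cells of sub-cluster 7, and at 6921 and 8344 in sub-cluster 13 (led by Krt6a), where Krt75 was at 9.99 and 13.7. Krt6a stood at 113 and 66.2 in sub-cluster 7 and at 156 and 363 in sub-cluster 13.

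The cells richest in sheath keratins also fell in sub-cluster 7. The 7 cells with the most UMIs of the 9 genes, 285 to 3977 each, were all there, and none was among the 5% of cells with the highest doublet scores. The richest cell of KO mouse 1 had 233 UMIs of Krt25, 111 of Krt27, 117 of Krt28, 39 of Krt71, 68 of Krt73 and 92 of Krt75. Krt25 in sub-cluster 7 stood at 76.2 and 297 CPM, or 40.0 and 47.2 without the highest cell of each mouse. The upper follicle name of this sub-cluster thus covers cells that carry sheath and companion layer keratins.

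Krt71 had a second, thin distribution. In sub-cluster 2 (856 cells, led by Egfl6, Phlda1, Sfrp1 and Rnase12, with Tbx1), it stood at 41.4 (interval 34.3 to 49.5) and 32.3 (27.0 to 38.5) CPM, while Krt28 was at 5.51 and 7.38 and Krt73 at 0.345 and 3.56. Of the 200 cells there with a Krt71 UMI, 161 had exactly 1, and none had more than 4. After thinning, 12.85% and 8.40% of these cells had a Krt71 UMI, against 0.484% and 1.37% of background cells and 1.31% and 1.48% of sub-cluster 7. Unthinned, the shares in sub-cluster 2 were 26.9% and 20.8%, against 1.42% and 4.48% in the background. Krt71 was not limited to sub-cluster 2: it stood at 31.4 and 20.95 CPM in sub-cluster 13 and at 19.4 and 15.8 in sub-cluster 6. In sub-cluster 0 it stood at 15.9 and 15.3. Sub-clusters 0, 2 and 6 shared the name outer root sheath and progenitor.

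Tchh in IFE was spread over many cells in the same way. After thinning, 10.8% of basal IFE-like cells in each mouse and 13.2% and 12.6% of suprabasal cells had a Tchh UMI, against 3.39% and 3.45% of the hair follicle class and 0.806% and 1.16% of background cells. Unthinned, the basal shares were 27.85% and 28.1% and the background shares 3.63% and 4.17%, at median depths of 9589 and 9785.5 UMIs in basal cells. The 40 and 68 dermal-like cells read 23.9 and 45.1 CPM. Of 419 cells with 3 or more Tchh UMIs, 340 were IFE-like and 72 follicle-like. In sub-clusters 10 and 11, Tchh was at 3.62 and 4.43 and at 9.56 and 8.83 CPM, below its IFE level where Krt28 was highest.

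**Figure D4:**
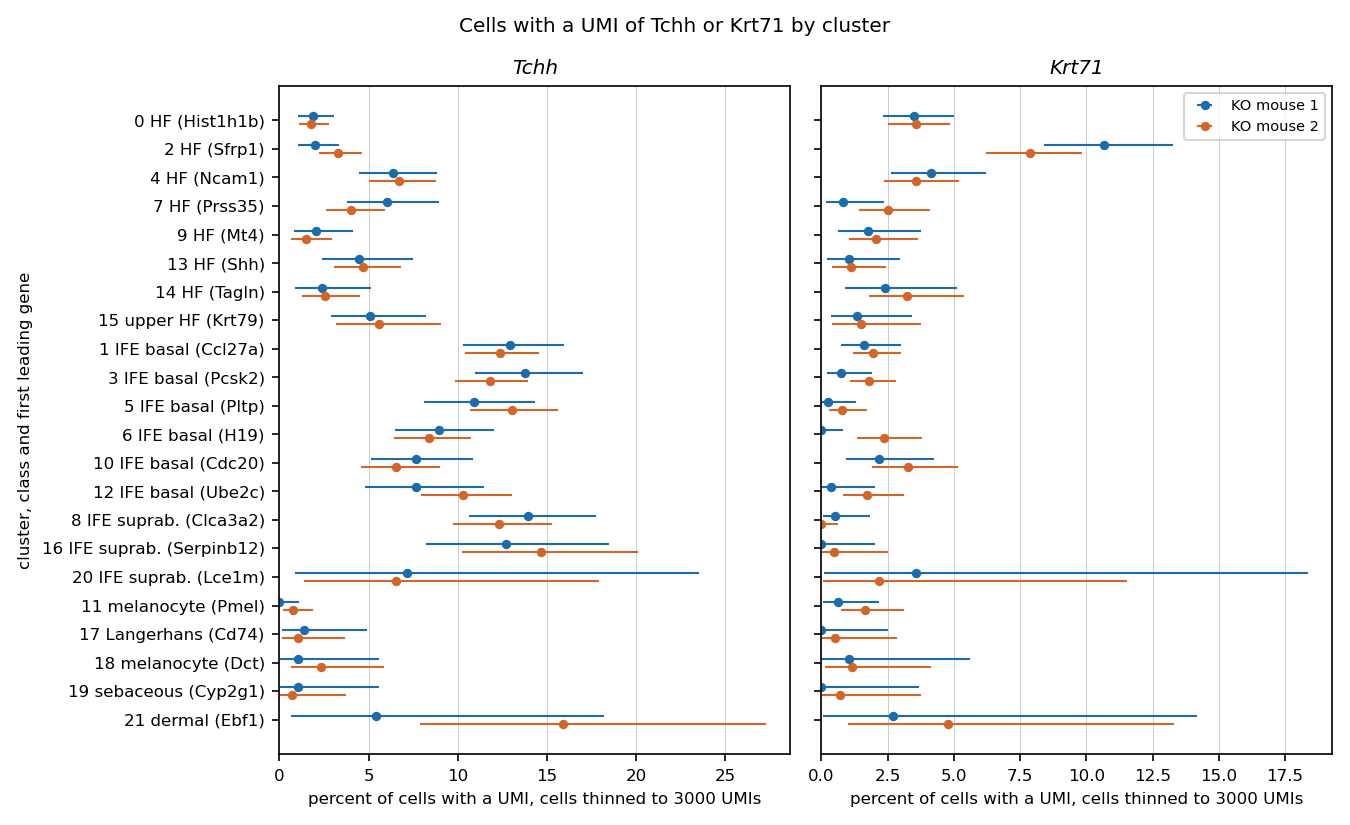
Percent of cells with a UMI of Tchh (left) or Krt71 (right) after thinning each cell to 3000 UMIs (horizontal axes) in clusters of at least 100 cells, with 1 point per mouse and exact 95% binomial intervals. Krt71 is highest in the Sfrp1-led cluster 2 (10.7% and 7.88%), and the Tchh share in the Pcsk2-led IFE cluster 3 is 13.8% and 11.8%.

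Co-detection was described with cells that had 3 or more UMIs of a gene. There were 1099 such cells for Krt28, 419 for Tchh, 361 for Krt35, 281 for Krt27, 156 for Krt25, 95 for Krt75, 53 for Krt73, 42 for Krt71 and 0 for Krt31. Of the Krt27 cells 89.7% also had 3 Krt28 UMIs, as did 87.2% of the Krt25 cells, 75.1% of the Krt35 cells and 64.2% of the Krt73 cells. Among follicle-like cells outside each of these groups, 8.80% to 10.99% did so. In the other direction, 24.7% of the Krt28 cells reached 3 Krt35 UMIs and 22.9% reached 3 Krt27 UMIs, against 1.03% and 0.284% of the other follicle-like cells. Among Tchh cells 5.73% reached 3 Krt28 UMIs, against 5.64% of all other cells and 11.2% of the other follicle-like cells.

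**Figure D5:**
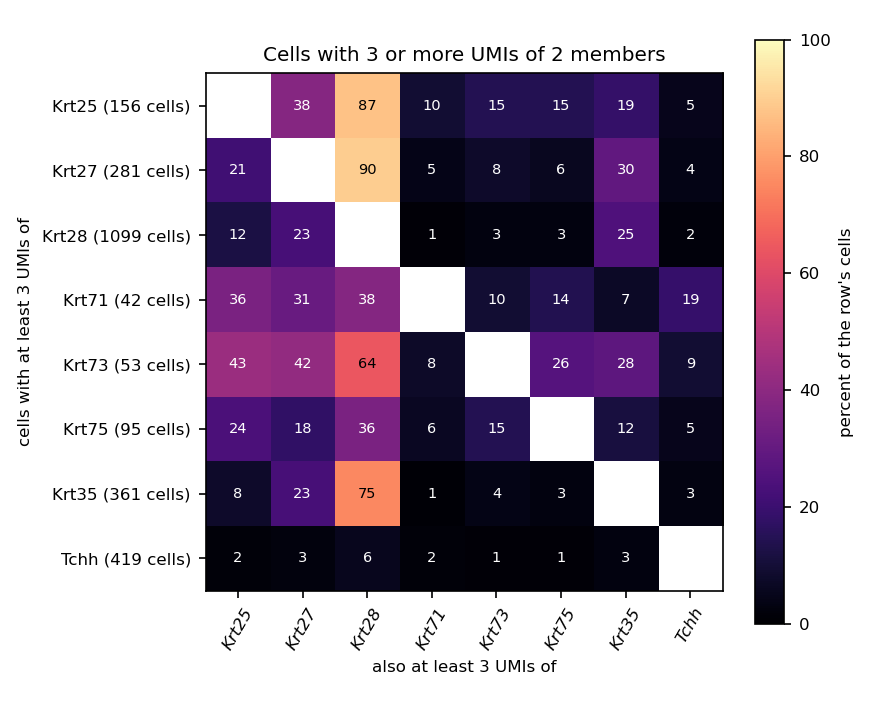
Of the cells with at least 3 UMIs of the gene in each row (number in brackets), the percent with at least 3 UMIs of the gene in each column. The Krt28 column is brightest, with 87.2% for Krt25, 89.7% for Krt27 and 75.1% for Krt35, while the Tchh row does not exceed 5.73%.

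Depth and doublet scores moved with these groups. The Krt28 cells had a median of 15316 UMIs, and 9.65% of them were among the cells with the highest doublet scores, against 10705 UMIs and 3.77% for the other follicle-like cells. Their part in the overlaps was not tested. In the background, 17 cells had 3 or more Krt28 UMIs.

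Levels of genes of dividing cells differed among these groups. Mki67 stood at 451 CPM in the Krt28 cells, 380 in the Krt35 cells, 162 in the Krt71 cells and 145 in the Krt75 cells, and at 252 in the other follicle-like cells. Msx2, a homeobox gene of the matrix, was found in 58.7% of the Krt28 cells and in 8.35% of the other follicle-like cells. Hoxc13, a homeobox gene known to activate hair keratin genes, stood at 125 CPM in the Krt35 cells and 58.0 in the other follicle-like cells. Among the sheath keratins it read 93.6 in the Krt27 cells, 87.5 for Krt28, 59.3 for Krt25, 49.8 for Krt73 and 28.1 for Krt71. The Krt75 cells read 76.6 and the Tchh cells 15.6. Cells can belong to several of these groups, and no test was made.

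Few cells carried many of the genes. In 40 cells (17 and 23 by mouse) at least 4 genes had 3 or more UMIs, and 31 of these were follicle-like. They held 52.0% of all Krt25 UMIs, 51.5% of Krt73, 35.9% of Krt71 and 32.7% of Krt75, but 12.9% of Krt28 and 4.93% of Krt35. Their median depth was 44122 UMIs, and 1 of the 40 was among the cells with the highest doublet scores. Outside the follicle, the IFE-like cluster 20 (49 and 60 cells, led by Lce genes of the cornified layer) read 305 and 116 CPM of Krt28 and 95.6 and 82.5 of Krt25, or 221 and 87.1 and 56.8 and 38.2 without the highest cell of each mouse.

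Other follicle genes were taken from lists by known function. The further inner root sheath keratins Krt26, Krt72 and Krt74 had 12, 14 and 1 UMIs in all, and none could be tested. Of 13 further hair keratins 2 were tested. Krt33a was higher in follicle-like cells (log2 fold change 1.71, edgeR adjusted p = 0.00159), with its highest levels in sub-cluster 1 (10.7 and 7.19 CPM) and sub-cluster 8 (8.43 and 6.35). Krt86 was instead highest in sub-cluster 11 (17.8 and 7.12). Krt32, with 1540 UMIs the most abundant of these keratins, was not called (log2 fold change -0.50, edgeR adjusted p = 0.118). Among the sub-clusters it was highest in sub-cluster 7 (36.8 and 35.5 CPM), followed by sub-cluster 6 (5.72 and 6.08). The 57 keratin-associated protein genes, which encode matrix proteins of the hair shaft, gave 601 and 667 UMIs, and 725 of these were Krtap17-1.

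Of 14 follicle transcription factors, 10 were higher and 2 lower in follicle-like cells, against 19.7% and 18.8% of all genes tested. Hoxc13 had a log2 fold change of 3.10 (edgeR adjusted p = 8.05e-08), Trps1 of 2.73 and Msx2 of 2.33, while Lef1 (-0.66) and Ovol1 (-0.88) were lower. Gata3, a regulator of inner root sheath fate, was not called (-0.31, edgeR adjusted p = 0.0772). In cells with 3 or more UMIs of a keratin, Gata3 stood at 299 CPM for Krt73, 254 for Krt25 and 197 for Krt27. It stood at 183 for Krt28, 181 for the companion layer keratin Krt75, 168 for Krt71 and 162.5 for the shaft keratin Krt35. The other follicle-like cells read 124. Of the keratin cells, 14 of 53 for Krt73, 24 of 156 for Krt25 and 9 of 42 for Krt71 were IFE-like. Over all IFE-like cells, Gata3 stood at 165 and 141 CPM after TMM scaling. No test was made. Of the 14 factors, Hoxc13, Lef1, Gata3, Runx1 and Vdr were themselves among the markers that named the hair follicle class.

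Of 9 follicle signals, 3 were higher (Shh 3.77, Wnt5a 3.39 and Bmp4 2.95 on the log2 scale), 3 lower and 3 not called. Shh was itself among the markers that named the hair follicle class. Of 4 cross-linking and envelope genes tested, Tgm5, a transglutaminase, was higher (0.84), and Tgm1, Tgm3 and Casp14, which act in the cornified layer, were lower. Tgm3 (-3.61) is also on the inner root sheath marker list. Of 5 desmosome genes tested, 3 were lower and 2 not called. Over all genes tested, 19.7% were higher and 18.8% lower, and these short lists were not tested as sets. Mki67 (1.12) and Top2a (1.18) were both higher, and both are on the marker list for dividing cells, which entered the naming.

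Genes with the most similar pattern were ranked by Pearson's r of log2(CPM + 10) over 28 sums (14 sub-clusters in each mouse), among 12857 genes. For Krt75 these were Dsg1a (r = 0.96), Myo5b, Tmem79, Metrnl and Grhl3 (each r = 0.95). For Krt71 they were Plcd1 (r = 0.79), Kctd1, Sgms2, Ankrd66 and Crct1. Without the richest cell the Krt71 list became Ptger1 (r = 0.90), Thsd1, Epb41l4b, Actr3 and 9130008F23Rik, so it depended on that cell. For Krt35, chosen after its values were seen, they were 9530036O11Rik (r = 0.93), Pcdh19, Sstr2, Krt27 and Lmo2. The sums of a mouse share its library, and these values are a description.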

How the data were processed

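Single-cell RNA libraries (10x Genomics 3′ chemistry) of 2 Chrm3 KO mice were analysed. The authors deposited UMI counts per gene and barcode, made with Cell Ranger 3.0.2 and build mm10 per the submitters' processing notes. The counts were raw, with 109756784 and 166441732 UMIs in 10816 and 15867 barcodes.

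The study's filter, 900 to 7700 detected genes and a mitochondrial share below 10%, left 19488 of 26683 barcodes. Clustering used Seurat 5.3.0 in R 4.3.3 (log-normalization, 2000 variable genes, integration of the mice, 30 dimensions, resolution 0.8), with 81 follicle keratin and keratin-associated genes left out of clustering and naming. Clusters were named from marker lists by the number of markers among the 10 leading genes, then by mean enrichment. Clusters of dividing cells were named by mean enrichment alone, and in the clustering of all cells only as hair follicle or basal IFE. Sub-clusters with no marker among the 10 leading genes, or with an IFE name, were left unnamed. Scrublet in scanpy 1.11.5 marked 2 cells in KO mouse 1 and 416 in KO mouse 2 by its automatic call, which had not worked for KO mouse 1, so no cell was removed and the 5% with the highest scores in each mouse were left out as an alternative.

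UMIs were summed per mouse and class and tested with edgeR 4.0.16 (quasi-likelihood test after TMM scaling and filterByExpr, with p-values adjusted by Benjamini-Hochberg over all genes tested), without a block. DESeq2 1.42.0 was an alternative. The sums of different classes come from the same animal, so the mouse as a replicate block was another. The edgeR step was tested on simulated data. Levels used Python 3.11.15, numpy 2.4.6 and scipy 1.17.1. Shares of cells were also given after thinning to 3000 UMIs, which left out 305 shallower cells. Gene positions are from GENCODE on GRCm38.

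The 9 genes found are named, with genes of fixed functional lists where called or highest in their list, and the 5 most similar genes for Krt71 and Krt75. The genes, lists and tests were chosen with earlier results of these data known.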

Additional observations from a re-analysis of the deposited data

Results flagged for a closer look

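Barcodes removed by the cell filter were used in no comparison, and all 9 genes stood above the level of the melanocyte-like, Langerhans-like and T cell-like cells in them. In the removed barcodes of KO mouse 1 and KO mouse 2, Krt25 stood at 89.0 and 119 CPM (UMIs per 1000000 UMIs of these barcodes), Krt27 at 45.2 and 51.1 and Krt28 at 167.1 and 167.5. The type II keratins Krt71, Krt73 and Krt75 stood at 21.2 and 25.7, 34.3 and 37.1, and 33.0 and 33.4. Krt35 stood at 105 and 91.9, Krt31 at 0.476 and 0.398, and Tchh at 59.9 and 63.1. The Krt31 values rest on 7 UMIs in each mouse, against 1 UMI in the background cells of both mice, so its difference is uncertain.

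Barcodes with over 7700 genes, 38 in KO mouse 1 and 41 in KO mouse 2, held 21.3% and 18.2% of all deposited UMIs of the 9 genes and 3.63% and 2.77% of the UMIs of all genes. Krt28 stood at 438 and 481 CPM in them and Krt25 at 230 and 339. Tchh stood at 20.1 and 21.9 there, and was highest in barcodes with under 900 genes in KO mouse 1 (92.5) and in those with at least 10% mitochondrial UMIs in KO mouse 2 (78.0).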

How the results depend on the processing

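Under the alternatives, 93 tested values for single genes kept their direction and their side of the threshold, and 3 kept their direction but were no longer called: Krt25 (log2 fold change 0.86, edgeR adjusted p = 0.0855) and Krt73 (0.59, edgeR adjusted p = 0.248) without the Krt79-led cluster, and Tchh (-0.83, edgeR adjusted p = 0.195) with cells under 5% mitochondrial UMIs, where fewer cells entered. The 16 values with 1 mouse left out kept their direction and have no test. None reversed. The count of genes called between follicle-like and IFE-like cells was 4962, and 2480 with cells under 5% mitochondrial UMIs; with the other alternatives it lay between 4321 and 6836. The share of UMIs of the 9 genes in follicle-like cells was 77.2%, and 86.3% under 5% mitochondrial UMIs and 55.7% when the Krt79-led cluster was not counted as follicle-like. It lay between 73.2% and 81.2% with each mouse left out in turn. For the changes under 5% mitochondrial UMIs the cause was not tested.

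With the mouse as a replicate block, a pairing that comes from shared animals, 6836 genes were called, and the block changed no call of the 8 genes tested. The planned comparison of inner root sheath-like or hair shaft-like sub-clusters with the rest was not run, because no sub-cluster took such a name. The settings without the Krt79-led cluster or without the richest cell were chosen after seeing the data, as were the counts and single-gene values under other clusterings and under 5% mitochondrial UMIs, the loss of the Tchh call included. Krt31 was too low to be tested at this depth.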
